A study of Mus musculus with 12 samples.

Results

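The cytosolic ribosomal protein genes encode the proteins that join ribosomal RNA to form the small and large subunits of the ribosome. They were chosen by symbol (Rpl, Rps, Rplp and Rpsa, protein-coding genes only, without the Rps6k kinases). No measured value entered that choice by symbol, though each gene was then read from its brightest probe. The family was chosen with earlier results of these data known. Of 85 such genes in the reference annotation of the mouse, 73 had a probe that could be named on the array, out of 8127 genes named in all. The 73 comprised 42 of 53 genes with Rpl symbols, for the large subunit, and 31 of 32 with Rps symbols, for the small subunit. The 12 genes without a named probe, not analysed here, included Rpl3l, Rpl5, Rpl8, Rpl9, Rpl14, Rpl22, Rpl31 and Rplp1. The table gives no gene names. A probe was named by reading the zero-padded number in its identifier as an Entrez gene number, although nothing in the files says so. Of 11897 such numbers, 82.6% were genes in the mouse reference table, against 46.0% after 1 was added to each.

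The RNA came from primary granulosa cells, the somatic cells that surround the oocyte in the ovarian follicle. Cells pooled from 14 to 20 ovaries of immature mice, 21 to 23 days old, were treated for 24 h with vehicle (PBS), with activin A, or with activin A together with follistatin. Each treatment was present in each of 4 experiments, which gave 12 arrays, and the labels used here give neither mouse strain nor dose. Activin A, which granulosa cells themselves secrete, signals through SMAD2 and SMAD3, and follistatin captures it outside the cell and blocks its signal.

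The small subunit reads the messenger RNA, and the large subunit joins the amino acids and carries the exit tunnel for the new chain. Many vertebrate ribosomal protein mRNAs begin with an unbroken run of pyrimidines, the 5′ terminal oligopyrimidine motif, through which the mTOR pathway controls their translation. That control acts on ribosome loading and need not alter the mRNA level, which is what the array measured. Granulosa cells divide quickly in the growing follicle, and growing cells make many ribosomes.

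Start-site sequence is shown first because the pyrimidine run is the feature that this family is known for. RefSeq windows on build GRCm38.p6 were matched to 56 of the 73 genes. In the 50 bases from 25 before to 25 after the annotated start, 29 of the 56 genes (51.8%) had an unbroken run of at least 8 C or T bases, against 22.0% of all 17491 protein-coding genes with a window. The lines below give 6 genes that recur in the results, 5′ to 3′ on the gene's strand, with the longest C or T run in capitals.
Rpl35, chr2:39005107-39005156, minus strand: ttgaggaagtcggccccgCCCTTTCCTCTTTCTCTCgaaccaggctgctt
Rps9, chr7:3704016-3704065, plus strand: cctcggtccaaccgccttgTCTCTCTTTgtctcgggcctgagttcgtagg
Rpl12, chr2:32961687-32961736, plus strand: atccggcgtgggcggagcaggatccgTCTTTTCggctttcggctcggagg
Rps7, chr12:28635929-28635978, minus strand: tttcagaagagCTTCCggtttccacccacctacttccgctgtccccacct
Rpl10, chrX:74270791-74270840, plus strand: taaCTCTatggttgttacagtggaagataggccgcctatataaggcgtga
Rpl7l1, chr17:46782632-46782681, minus strand: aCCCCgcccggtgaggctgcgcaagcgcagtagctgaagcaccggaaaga
The longest run was 18 bases in Rpl35, a large-subunit protein at the tunnel exit, and 9 bases in Rps9, a small-subunit protein. It was 7 bases in Rpl12, which sits at the base of the ribosomal stalk, and 5 bases in Rps7, and so both fell short of the minimum. The longest runs in Rpl10 and Rpl7l1 were 4 bases each. The window depends on the annotated start, so a short run says only that these letters are not in it.

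Other letter motifs were counted on both strands of the 300-base windows that begin upstream of the start. CCGGAAG, part of the letters bound by factors of the ETS family, was present in 24 of 56 genes (42.9%) against 12.9% of all genes. AAGATGGC, letters of the YY1 motif, was present in 5 genes (8.9%) against 3.6%. TATAAA, the TATA box, was present in 6 genes (10.7%) against 14.8%. A match is a description of letters and not a measured site.

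The deposited values, whose scale was log2 or close to it, ran from 6.75 to 16.2, so a difference of 1 is read as a doubling. Array medians lay between 7.17 and 7.18, and precision was limited by how many arrays there were. Background was set at the brightest control spot (mean 7.31), and 31.9% of the 46084 probes tested lay above it. A gene was read from its brightest probe. The activin target follistatin (Fst), a granulosa cell product, had a mean of 10.4 with PBS, 12.9 with activin and 8.70 with activin plus follistatin and kept that order in all 4 experiments. Of 14 granulosa markers only Fst, Wt1 and Gata4 had a named probe, all above background. Wt1, a granulosa transcription factor, read 9.39 with PBS, 9.01 with activin and 9.74 with activin plus follistatin, and Gata4 read 7.66, 7.63 and 7.85. In limma without a block, Wt1 with activin passed neither against PBS (adjusted p = 0.578) nor against activin plus follistatin (0.0792). With the experiment as a block in limma, Wt1 fell with activin (adjusted p = 0.0196 against PBS and 0.00021 against activin plus follistatin). Of 4 theca and stroma markers with a named probe, Insl3 and Lhcgr lay below background and Dcn and Col3a1 above it. Dcn read 9.57 with PBS, 7.80 with activin and 10.6 with activin plus follistatin on average, and Col3a1 read 8.62, 7.89 and 8.84. The means of these matrix genes differed between treatments, and their part in the results here was not tested. Of the macrophage, erythroid, endothelial and surface epithelial markers with a named probe, only Lyz2 (7.37), Hbb-b1 (7.32) and Pecam1 (7.34) lay above background, each by a small margin. No oocyte marker had a named probe. In such bulk RNA, fewer cells of a type and less RNA per cell cannot be told apart.

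Ribosomal protein mRNAs gave some of the brightest probes on the array. Of the 73 genes, 69 had a mean above background, against 4068 of all 8127 named genes. The median of the members was 14.74 over all 73, and 48 had a mean over 14. The 4 genes not above background were Rps18 (6.95), Rpsa (7.08), Rpl18 (7.24) and Rplp2 (7.24), so nothing can be read from their differences. Rps19 (7.34), Rpl29 (7.38), Rps15a (7.49) and Rpl4 (7.60) lay just above it. All of these encode standard ribosomal proteins, Rplp2 being part of the stalk. These low values are readings of single probes, and cross-hybridisation of any probe to the many ribosomal pseudogenes or to paralogs was not tested.

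Of the 9 genes with more than 1 named probe, 6 had a dimmer probe with a mean between 7.04 and 7.52. The exceptions with both probes well above background were Rps3 (14.7 and 13.9), Rps9 (15.4 and 14.4) and Rpl27a (16.0 and 11.9). Over the 12 arrays, the range of a gene's values ran from 0.11 to 0.96, with a median of 0.45. The widest range was that of Rpl30, a large-subunit protein, whose activin arrays read 11.04, 11.73, 11.59 and 10.85 in experiments 1 to 4.

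Activin against vehicle asks what the hormone does to these genes. None of the 73 passed limma's moderated test with Benjamini-Hochberg adjustment over all probes, where 2.91% of all probes and 9.69% of the 4068 named genes above background were called. An unadjusted p under 0.05 was seen in 4 members, against 12.2% of all probes and 28.6% of named genes above background. Differences were small: the median was 0.04, the extremes were -0.16 and 0.27, and 72 of 73 genes differed by less than 0.25. The 95% interval of the difference lay within 0.5 of 0 for 68 genes and within 1 of 0 for all 73. Among the named genes above background, the median was 0.01 and 76.0% had an interval within 0.5. That set, used here and below, was not matched to the members for brightness, and the 73 include the 4 genes not above background.

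The largest difference was that of Rpl10, a large-subunit protein that joins late in assembly and is needed before the subunits can pair. With PBS its values were 15.16, 15.31, 15.19 and 15.32 in experiments 1 to 4, and with activin 15.57, 15.46, 15.52 and 15.53. Every activin array was above every PBS array, by 0.27 ± 0.07 on average (SE, n = 4 a group), with an adjusted p of 0.0817 in limma. Next came Rpl36al (0.24), Rpl7l1 (0.22) and Rpl30 (0.21), with adjusted p of 0.499, 0.352 and 0.867 in limma. At the other end were Rps15a (-0.16), Rpl22l1 (-0.11), Rpl41 (-0.10), the shortest of the ribosomal proteins, and Rpl27a (-0.10), none of which passed.

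Each experiment held all 3 treatments, so the comparison was also made within experiments, with the experiment as a block. In limma with this block, 4 members rose with activin, among them Rpl10 by 0.27 (adjusted p = 0.0279), Rpl13 by 0.17 (0.0420) and Rps27 by 0.14 (0.0415). Those 4 genes compare with 6.12% of all probes called and 3.09% called higher, and with 10.5% of named genes above background called higher. A random experiment block gave a count of 0. Rpl13 is a large-subunit protein, and Rps27 belongs to the small subunit.

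**Figure D1:**
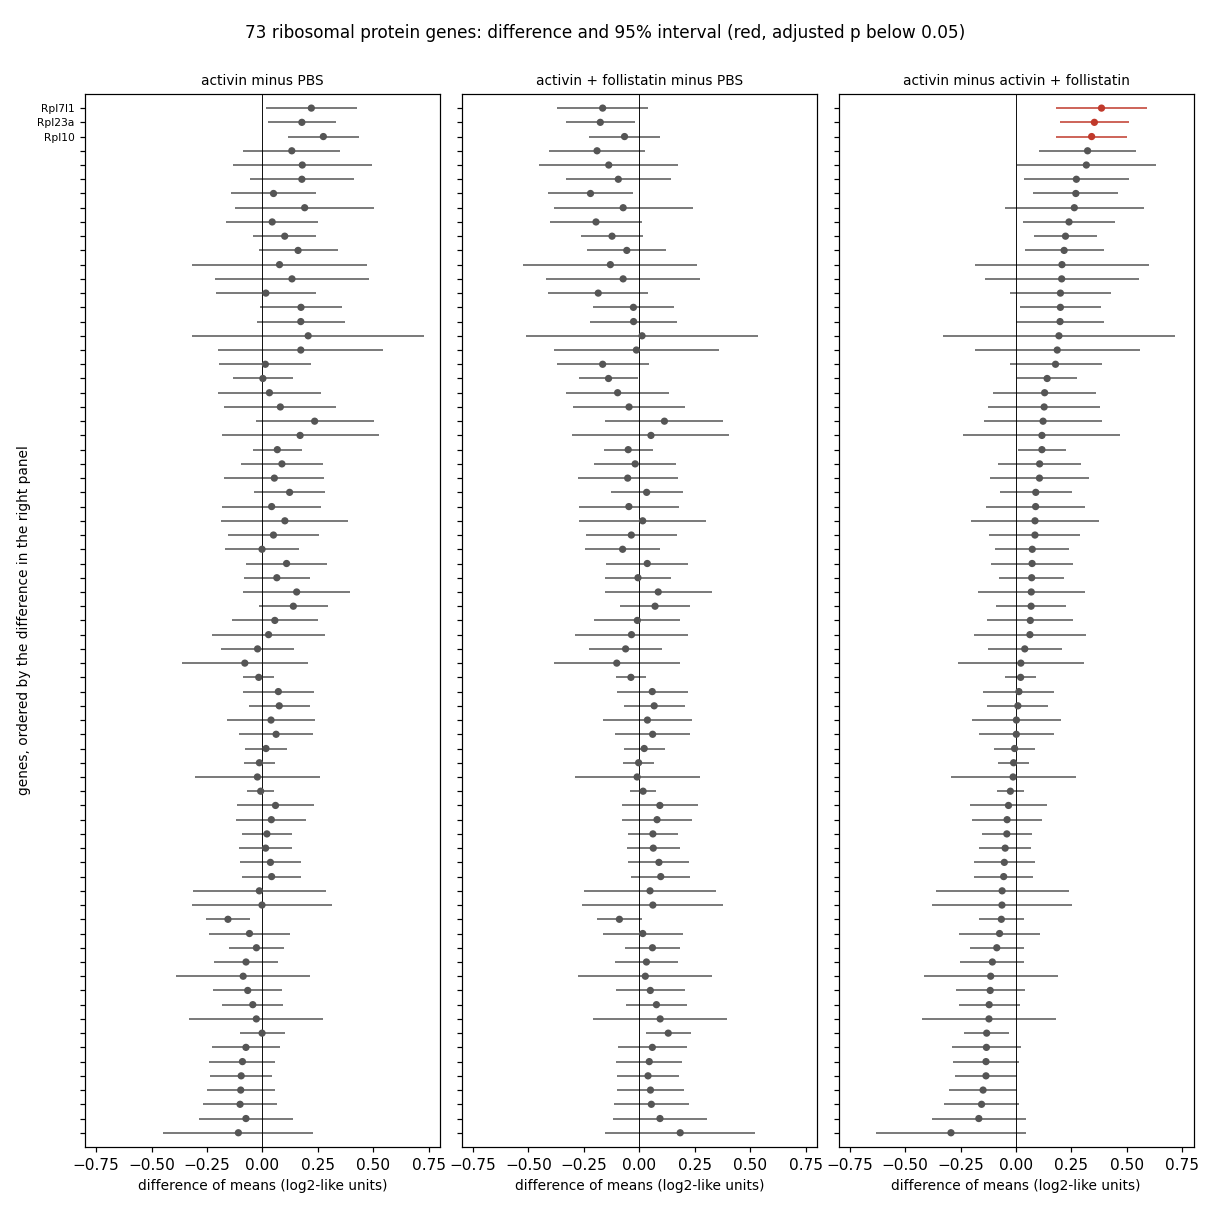
Each line is 1 of the 73 genes in each of the 3 comparisons, with the point at its difference between group means (log2-like units, 4 arrays a group), the bar its 95% interval, and red an adjusted p below 0.05. Genes are ordered by the right panel, with names at the 3 called. The points crowd around 0, and the widest spread, from -0.29 to 0.39, is in activin against activin plus follistatin.

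Activin plus follistatin against vehicle, which shares its PBS arrays with the comparison above, asks how cells given both differ from vehicle cells. Follistatin can also capture activin that the cells secrete, so vehicle is not a state without activin. No member passed limma's test, with 0.178% of all probes and 0.516% of named genes above background called. An unadjusted p under 0.05 was seen in 4 members, against 7.17% of all probes and 14% of named genes above background. Under a fixed or a random experiment block the count was also 0, while the fixed block called 1.21% of all probes. The median difference was 0.01, all 73 differences were under 0.25 in size, and 70 of the 73 intervals lay within 0.5 of 0. Among the lowest values were those of Rplp0 (-0.22, adjusted p = 0.612 in limma), Rpl13a (-0.19) and Rps24 (-0.18). The highest were Rpl22l1 (0.18), Rps28 (0.13, adjusted p = 0.509 in limma), Rpl36al (0.11) and Rpl24 (0.10).

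Activin against activin plus follistatin, which uses the same activin and follistatin arrays again, asks which genes differ when activin is free or bound. Rpl10, Rpl23a and Rpl7l1 were higher with free activin, and no member was lower. These 3 of 73 compare with 7.15% of all probes called, and 3.65% called higher, and with 22.8% of named genes above background called and 10.5% called higher. An unadjusted p under 0.05 was seen in 15 members, against 16.2% of all probes and 41.5% of named genes above background. The median difference of the 73 was 0.06, and 61 of 73 intervals lay within 0.5 of 0, against 68.3% of named genes above background.

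Rpl23a, a large-subunit protein at the tunnel exit where the signal recognition particle binds, had the smallest adjusted p. Its values in experiments 1 to 4 were 14.08, 14.24, 14.30 and 14.20 with activin and 13.76, 13.84, 13.86 and 13.95 with follistatin added. All 4 activin arrays lay above all 4 follistatin arrays. The difference was 0.35 ± 0.07 (SE), a fold of 1.28, with an adjusted p of 0.00875 in limma. The PBS arrays, at 13.92, 14.23, 13.99 and 13.96, lay between or within both groups.

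Rpl10 read 15.57, 15.46, 15.52 and 15.53 with activin and 15.09, 15.25, 14.99 and 15.39 with follistatin added. Again the groups did not overlap, and the difference was 0.34 ± 0.07 (SE), a fold of 1.27, with an adjusted p of 0.0136 in limma. Rpl7l1 encodes a paralog of the large-subunit protein Rpl7. It read 10.21, 10.12, 9.88 and 10.40 with activin and 9.69, 9.72, 9.78 and 9.87 with follistatin added, so that the activin array of experiment 3 only just cleared the highest follistatin array. The difference was 0.39 ± 0.09 (SE), a fold of 1.31, with an adjusted p of 0.0258 in limma. Among its PBS arrays, experiment 4 (10.08) stood above the other 3 (9.87 to 9.89).

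These calls rest on few arrays. Without 1 array, Rpl7l1 lost its call in 6 cases (the activin arrays of experiments 1, 2 and 4 and the follistatin arrays of experiments 1, 2 and 3, adjusted p 0.0513 to 0.0746 in limma), and without a whole experiment it lost it for experiments 1 and 2, Rpl10 for experiments 1, 2 and 3, and Rpl23a for experiment 3.

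**Figure D2:**
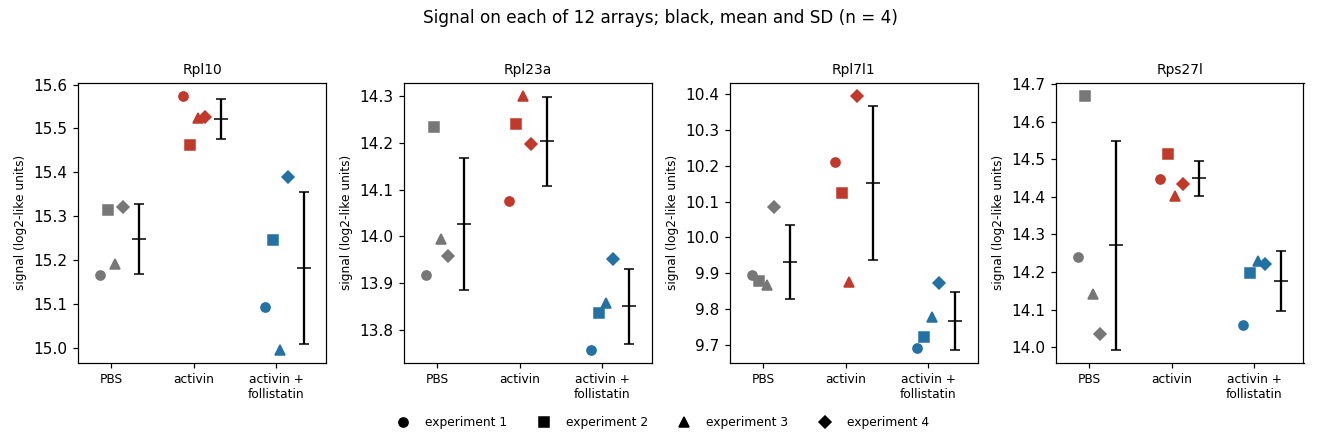
Signal (log2-like units) of the 3 members called between activin and activin plus follistatin, and of Rps27l, which was not called, by treatment, with the symbol marking the experiment and black bars the mean and SD of 4 arrays. The activin arrays of each gene lie above its follistatin arrays, with Rpl7l1 the closest, at 9.88 against 9.87.

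Rps27l, a paralog of Rps27 known as a p53 target, was the remaining gene whose activin arrays (14.45, 14.51, 14.40 and 14.43) all lay above the follistatin arrays (14.06, 14.20, 14.23 and 14.22). Its difference of 0.27 ± 0.11 (SE) did not pass (adjusted p = 0.213 in limma). Such a gap was seen in 4 of 73 members and 5.44% of all probes, and the opposite gap in 0 members and 5.56% of all probes. Among named genes above background these shares were 12.7% and 14.9%. Within experiments, 18 members were higher with activin in each of the 4 experiments, against 12% of all probes and 23% of named genes above background. Among the 18 were Rpl7l1, Rpl10, Rpl12, Rpl13, Rpl13a, Rpl23a, Rpl26, Rpl28, Rpl35a, Rpl36a, Rplp0, Rps15, Rps19, Rps23, Rps27 and Rps27l. Rpl17, Rpl27, Rps7 and Rps28 were lower in all 4, 4 members against 12.5% of all probes and 25.8% of named genes above background.

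With the experiment as a block in limma, 13 members were called, all higher with free activin, where 11% of all probes were called and 5.5% called higher. Among named genes above background 36.2% were called and 17.2% called higher, so the members' count is close to the share of such genes called higher. A random experiment block called 4 members, the 3 above and Rpl28. Beside the 3 above, the 13 called with the fixed block included Rpl12, Rpl13, Rpl13a, Rpl28, Rplp0, Rps15, Rps19 and Rps23. Rpl28, of the large subunit, had a difference of 0.22 (adjusted p = 0.00563 in limma with the block). Rps19, whose human gene is mutated in Diamond-Blackfan anaemia, lay just above background at a mean of 7.34. Of the 13, 8 belong to the large subunit and 5 to the small.

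The stalk of the large subunit, which recruits the elongation factors, was represented by Rplp0 and its neighbour Rpl12. Rplp0 read 9.95, 10.16, 9.72 and 10.00 with activin and 9.66, 9.84, 9.67 and 9.58 with follistatin added. Activin was the higher in each experiment although the groups overlapped, and the difference was 0.27 ± 0.09 (SE), with an adjusted p of 0.108 in limma and 0.00868 with the block. Rpl12 read 12.87, 13.31, 12.79 and 13.22 with activin and 12.71, 13.03, 12.45 and 12.73 with follistatin added, a difference of 0.32 (adjusted p = 0.302 in limma, 0.00747 with the block). Experiments 2 and 4 were the high ones for Rpl12 with activin, which widened the spread within the group.

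Paralogs within the family did not pass the test on both sides of any pair. Rpl7l1 differed by 0.39 and Rpl7 by 0.09 between activin and activin plus follistatin, Rps27l by 0.27 and Rps27 by 0.07, and Rpl36a by 0.26 and Rpl36al by 0.12. Whether the members of a pair differ in response was not tested. Rpl22l1, a paralog of Rpl22, had the lowest difference of the family, -0.29 ± 0.15 (SE, adjusted p = 0.411 in limma). It read 9.30, 9.92, 9.45 and 9.36 with activin and 9.70, 9.67, 9.95 and 9.88 with follistatin added, and so went the other way in experiment 2. The next lowest were Rpl3 (-0.17), which lies near the peptidyl transferase centre, Rpl41 (-0.16) and Rpl27a (-0.15).

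The sign of the members' difference changed among the brightest probes. Of the 16 brightest members, 15 read lower with activin than with activin plus follistatin, with a median of -0.10, and 35 of the 38 other probes as bright did the same, with a median of -0.14. Of the 48 members below these with a mean over 9, 39 read higher with activin (81.3%), with a median of 0.10. Among 4659 other probes in that range 48.7% read higher, with a median of -0.01, but that set was not matched for brightness. From 14 up to the 16 brightest members, 78.1% of 32 members read higher against 54.5% of 112 other probes (medians 0.08 and 0.03). From 9 to 14 it was 87.5% of 16 members against 48.6% of 4547 other probes (medians 0.19 and -0.01). After quantile normalization of the arrays, a setting that forces equal distributions, 8 of the 16 brightest members read lower (median 0.00), 24 of the 38 other probes read lower, and 37 of the 48 read higher (median 0.06). After median centring, 15 of the 16 brightest members and 35 of the 38 other probes still read lower. The array medians were nearly equal beforehand, so median centring could hardly move the values and decides nothing here.

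**Figure D3:**
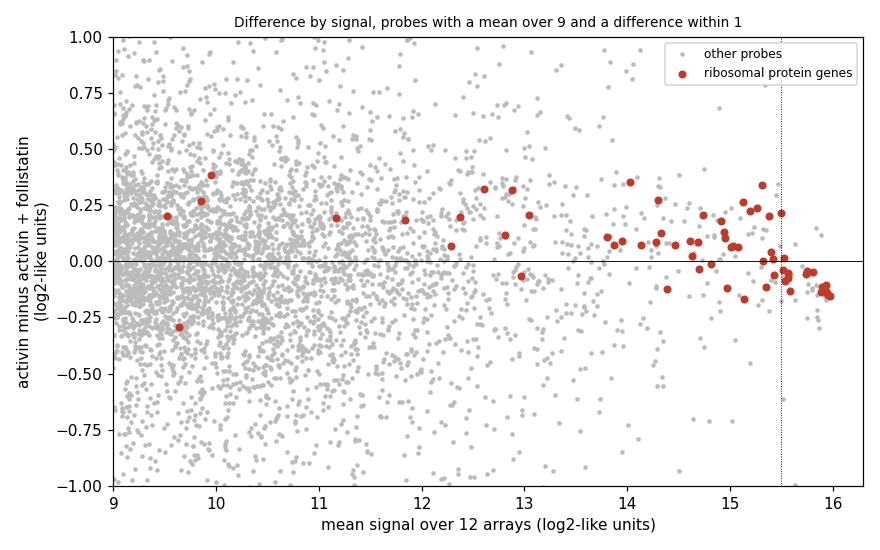
Difference between activin and activin plus follistatin against the mean signal over 12 arrays (both in log2-like units), with the 73 genes where the mean is over 9 in red and other probes in grey. Left of the dotted line 39 of 48 red points lie above 0, and right of it, among the 16 brightest members, 15 lie below 0, as do 35 of 38 grey points.

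Rpl27a, a large-subunit protein, was measured by 2 probes on either side of that brightness. The brighter probe (mean 16.0) read 15.86, 15.81, 15.82 and 16.02 with activin and 16.03, 16.14, 15.97 and 15.97 with follistatin added. Its activin arrays were the lower in experiments 1 to 3, and the difference was -0.15 ± 0.07 (SE, adjusted p = 0.328 in limma). The dimmer probe (mean 11.9) read 12.16, 12.12, 11.75 and 12.19 with activin and 11.79, 11.84, 11.85 and 11.62 with follistatin added. Here activin was the higher in all but experiment 3, with a difference of 0.28 ± 0.09 (SE, adjusted p = 0.112 in limma). The 2 probes of 1 gene gave opposite signs on the deposited scale, neither past the test. After quantile normalization the brighter probe differed by -0.003 (adjusted p = 0.981 in limma). It read close to the highest value of each array, such as 15.81 beside an array maximum of 15.85 with activin and 16.14 beside 16.15 with follistatin added, both in experiment 2.

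**Figure D4:**
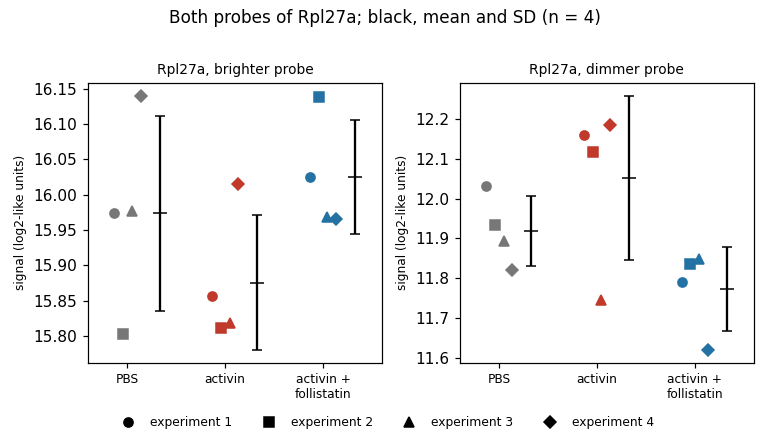
Signal of both Rpl27a probes (log2-like units, separate axes) by treatment, with the symbol marking the experiment and black bars the mean and SD of 4 arrays. In the brighter probe the activin mean is the lowest of the 3 treatments, and in the dimmer probe it is the highest.

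The experiments were separate repeats, each with its own pool of cells, and whatever else differed between repeats cannot be told apart from the cells. With treatment in the model, 14 of 73 members (19.2%) differed between experiments in limma's moderated F test, where 5% of all probes, 17.7% of named genes above background and 22.9% of the 708 other probes with a mean over 12 were called. The members' share lies above that of named genes above background, a set not matched for brightness. It lies below that of the other probes over 12. Split by mean signal, it was 11.1% against 3.14% of other probes under 9, and 25% against 21.3% from 9 to 14. From 14 up to the 16 brightest members it was 25% against 18.75%, and among those 16 it was 6.25% against 2.63%. These levels held 1, 4, 8 and 1 called members, and the gaps were not tested. The 14, 7 from each subunit, included, in order of the F statistic, Rps15, Rpl12, Rps9, Rps7, Rpl26, Rpl7, Rps27, Rpl10a, Rpl13, Rpl36, Rpl35 and Rps19. After quantile normalization 7 members were called, and 4 with a trended and robust prior. Shares of all probes called under those settings are not given here. The counts therefore do not show whether the members lost more calls than other probes.

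Rps15, a small-subunit protein close to the decoding site, differed most. Its values in experiments 1 to 4 were 12.82, 13.35, 12.84 and 13.23 with PBS, 13.03, 13.44, 12.75 and 13.33 with activin, and 12.78, 13.28, 12.66 and 13.00 with activin plus follistatin. In each treatment, experiments 2 and 4 read above experiments 1 and 3. Its experiment means were 12.88, 13.36, 12.75 and 13.19 (adjusted p = 0.000669 in limma). Those of Rps9 were 15.23, 15.42, 15.15 and 15.60 (adjusted p = 0.0142 in limma), but its dimmer probe, at 14.29, 14.51, 14.32 and 14.39, was not called (adjusted p = 0.651 in limma). Those of Rpl12 were 12.79, 13.10, 12.63 and 13.00 (adjusted p = 0.0124 in limma). Rps15 kept its call under every alternative run.

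The order of experiments was shared by most of the family. The highest experiment mean fell in experiment 2 for 35 of the 73 members and in experiment 4 for 34, against 1 member in experiment 1 and 3 in experiment 3. The lowest fell in experiment 1 for 32 members (43.8%) and in experiment 3 for 33 (45.2%). Among 3999 other named genes above background, the highest mean fell in experiments 1 to 4 for 25.2%, 22.2%, 23.9% and 28.8%. Their lowest mean fell in experiments 1 to 4 for 30.3%, 17.9%, 23.2% and 28.7%. After quantile normalization the members' highest mean fell in experiments 1 to 4 for 2, 39, 2 and 30 genes. Members share the arrays, so they are not independent, and no test was made of this order. The macrophage marker Lyz2 also differed between experiments (adjusted p = 0.0327 in limma), with 7.55, 7.62 and 7.94 on the arrays of experiment 4 and 7.18 to 7.39 on the others. The other macrophage markers with a probe (Cd68, Csf1r and Ptprc) were below background on average, and the part of such cells was not tested.

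The sizes were small. The median deviation of the 69 members above background from their own means ran from -0.13 on the follistatin array of experiment 1 to 0.14 on the activin array of experiment 2. That of the other named genes above background ran from -0.02 to 0.02, and that of the 708 other probes with a mean over 12 from -0.06 to 0.03. The pyrimidine run was present in 5 of the 10 matched members called between experiments and 24 of the 46 matched members not called.

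**Figure D5:**
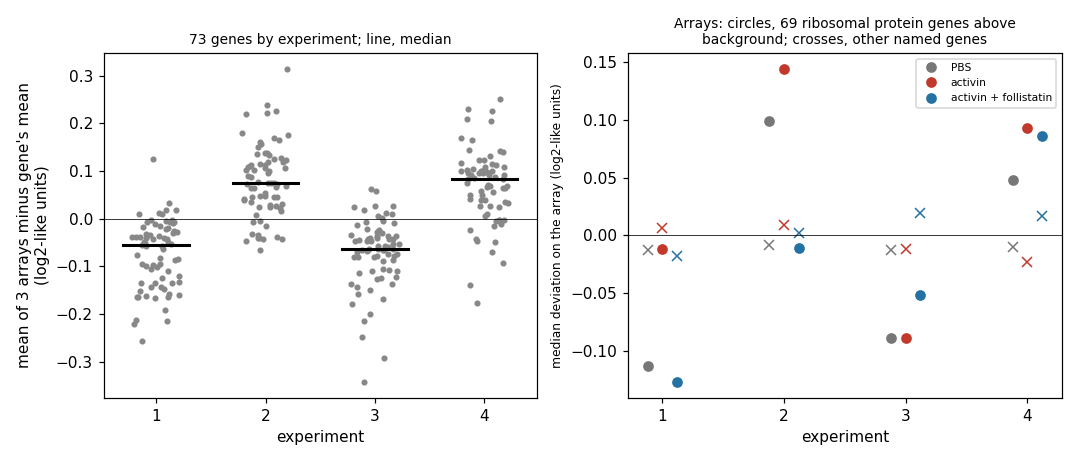
Left, the experiment means of the 73 genes minus each gene's own mean, with the line at the median. Right, the median deviation on each of the 12 arrays for the 69 members above background (circles) and other named genes (crosses), in log2-like units, where the circles of experiments 2 and 4 lie mostly above 0 and the crosses lie close to it.

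Genes of ribosome assembly, which process ribosomal RNA and load the proteins onto it, were read from a list of 67, of which 33 had a named probe. In activin against activin plus follistatin, 29 of the 33 read higher with activin and the median was 0.20, but only Tcof1 passed limma's test. Of 4068 named genes above background, 1995 read higher, the median was -0.005, and 22.8% were called. Tcof1, which acts in ribosomal RNA transcription, rose by 0.50 ± 0.14 (SE, adjusted p = 0.0466), and its values were 10.13, 10.38, 9.72 and 10.12 with activin and 9.47, 9.88, 9.45 and 9.53 with follistatin added. Those groups overlapped. Fbl, the methyltransferase fibrillarin, differed by 0.65 ± 0.19 (adjusted p = 0.0667 in limma) and Rrp1b by 0.44 (adjusted p = 0.0539 in limma). With the experiment as a block, 13 were called higher and 1 lower, where 36.2% of named genes above background were called and 17.2% called higher. None of the 33 passed in activin or activin plus follistatin against PBS without the block, and 4 of 33 read higher in the latter. The highest experiment mean fell in experiment 2 for 18 of the 33 and in experiment 4 for 14. Between experiments 13 of the 33 were called, where 17.7% of named genes above background were called.

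Elongation factors and other mRNAs known to carry the pyrimidine motif numbered 12 measured of 17 listed, 11 of them above background. Of all named genes above background, 22.8% were called between activin and activin plus follistatin without the block, and 36.2% with it. Against PBS these shares were 9.69% and 20.8% for activin, and 0.516% and 4.3% for activin plus follistatin. Eef1g, a subunit of elongation factor 1, rose by 0.34 ± 0.09 (SE, adjusted p = 0.0297 in limma) with activin against activin plus follistatin, and the other 11 did not pass. Fau, whose product is processed to the small-subunit protein eS30, differed by 0.19 (adjusted p = 0.118 in limma), and Eef2, the translocase, by -0.26 (adjusted p = 0.174 in limma). With the experiment as a block, Fau rose (adjusted p = 0.00779, and 0.0259 against PBS) and Eef2 fell (adjusted p = 0.00119) in limma, and Eef2 was higher with activin plus follistatin than with PBS (adjusted p = 0.0451). Of 19 measured initiation factors, 16 of them above background, none passed in any of the 3 comparisons, with or without the fixed block. Of 13 measured regulators of ribosome synthesis, 9 of them above background, none passed without the block. With it, the kinase gene Rps6ka2 rose with activin (adjusted p = 0.0119 against PBS and 0.033 against activin plus follistatin in limma). Rictor, a subunit of mTOR complex 2, fell against activin plus follistatin (adjusted p = 0.0289 in limma).

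The mitochondrial ribosome, which translates only the mitochondrial genome, had 35 genes measured. With activin against PBS, 3 rose, namely Mrps21 (0.58 ± 0.08, adjusted p = 0.00156), Mrpl1 (0.23) and Mrps6 (0.35), in limma. Against activin plus follistatin 5 rose, namely these 3 by 0.70, 0.45 and 0.71, Mrpl33 by 0.46 and Mrps17 by 0.27. Among named genes above background, 9.69% were called against PBS. Against activin plus follistatin 22.8% of them were called, and 10.5% called higher. Mrps21 read 12.66, 12.32, 12.60 and 12.66 with activin and 12.01, 12.01, 12.03 and 11.86 with PBS, with no overlap. Its difference from PBS was above the largest of any cytosolic ribosomal protein gene, 0.27, though the difference between the families was not tested.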

How the data were processed

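RNA of 12 granulosa cell cultures, 4 for each of 3 treatments, was hybridised to Illumina Sentrix Mouse-6 arrays, starting from 100 ng each, per the labels' protocols. The authors deposited 1 table of normalized values on a log2 or log2-like scale. The submitters' processing notes name lumi 1.2.0 without its role, and the normalization method is not given in the sources used here. The values were used as deposited, with 32 control spots of 46116 probes left out.

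Means of the 3 groups were fitted to all 46084 probes with limma 3.58.1 in R 4.3.3, and p-values were adjusted by Benjamini and Hochberg's method across those probes, with 0.05 as the threshold. The experiment was a fixed block in a second fit, and its terms gave the test between experiments. Comparisons share arrays. The experiment number pairs the arrays, since the series' design text describes separate experiments, and array pairs of 1 experiment had correlated deviations from their group means (r 0.331 to 0.801 over 12 pairs; -0.632 to 0.406 over 36 others). Granulosa cells of an experiment were pooled, so p-values of the fit without a block measure the spread between experiments. The fixed block takes that spread out, and its p-values measure how far treatment differences vary from experiment to experiment. The test between experiments is judged against that same remaining variation.

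Genes named were members called in any comparison (up to 12 each), the 4 highest and 4 lowest per comparison, the members with the largest F or range, and paralog and stalk genes. The members and the lists (ribosome biogenesis, elongation and motif-bearing mRNAs, initiation factors, regulators, mitochondrial ribosome, cell type markers) were chosen with earlier results of these data known. The fits were tested on simulated data. Alternatives were a fixed and a random experiment block, quantile normalization, median centring, array weights, a trended and robust prior, only probes above background, the mean of a gene's probes, leaving out arrays or experiments, and, added after seeing the data, all members but the 16 brightest. The values of a few members are not reported here.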

Additional observations from a re-analysis of the deposited data

Results flagged for a closer look

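Among 99 groups of 4 arrays, from 33 members, 2 held an array whose gap to the next, divided by the range of the group, passed Dixon's critical value for 4 samples. Chance flags about 1 in 20 groups, so 2 of 99 is no excess. Rpl7l1 with PBS read 10.08 in experiment 4, where the other PBS arrays read 9.87 to 9.89. Rplp2 with activin plus follistatin read 7.11 in experiment 1, where the others read 7.21 to 7.22, all below the background of 7.31.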

How the results depend on the processing

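Counts of members called changed as follows, given without the shares of all probes called under the same settings. For activin against PBS, 0 members became 4 with the experiment as a fixed replicate block and 1 over only probes above background, and leaving out arrays gave 0 to 2 (2 without the PBS array of experiment 2, 1 without the activin array of experiment 4 or the follistatin array of experiment 3 or 4). For activin plus follistatin against PBS the count was 0 under every alternative run, the replicate block included. For activin against activin plus follistatin, 3 became 13 with the block, 5 over only probes above background and 1 with a trended and robust prior, where Rpl23a (adjusted p = 0.0797) and Rpl10 (0.111) lost their calls in limma. Leaving out arrays or experiments gave 1 to 5 (1 without experiment 1, 5 without experiment 4 or without the activin array of experiment 3). Between experiments, 14 became 7 after quantile normalization and 4 with the trended and robust prior, and 5 to 10 without 1 experiment (7, 5 and 8 without experiments 1, 3 and 4). With the experiment as a random replicate block the 3 treatment counts were 0, 0 and 4. Only the last of these differed from the fit without a block, where it was 3, by the call of Rpl28. The fixed block moved the first and the last count more, to 4 and 13. Signs reversed for Rpl27a between activin and PBS after quantile normalization (0.00) and with the mean of its probes (0.017), and between activin and activin plus follistatin with the mean of its probes (0.065), where its probes disagree. Rpl22l1 between activin and PBS ran from -0.247 to 0.023 when arrays were left out, the positive value without the PBS array of experiment 2. The causes were not tested. Signals near background and the few arrays limit what can be seen.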
